A study of Trametes coccinea with 9 samples.

Results

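A set of 67 genes of the white-rot fungus *Pycnoporus coccineus* was raised on both woods relative to maltose and stood higher on pine than on aspen. Members were chosen by the normalized read counts themselves. The mean of the 3 cultures on each substrate was taken, 10 was added to it, and a gene was kept where aspen was at least 4 times maltose and pine at least 2 times aspen. Of the 11202 genes in the normalized table, 75 met both ratios, and 8 of these were left out by the definition of the set, being 3 P450s, 2 AA9s, a GH43, a GH28 and an AA3_4. Since the definition used all 3 substrates, the levels below are descriptions and no test of a member between substrates is given as a result. Ratios of means in the text carry the same added 10.

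White-rot fungi break down all the polymers of wood. They secrete glycoside hydrolases, polysaccharide lyases and oxidative enzymes that cut cellulose, hemicelluloses, pectin and lignin, and inside the cell oxidases such as cytochrome P450s act on lignin fragments and on wood extractives. In filamentous fungi the genes of wall-degrading enzymes are held low while an easily used sugar is plentiful and are raised when polymer fragments reach the cell, and coniferous wood differs from hardwood in its hemicelluloses, its lignin and its resinous extractives.

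All 9 libraries came from the monokaryotic strain CIRM-BRFM 310, harvested as mycelium with the leftover solid substrate on day 3 of shaken liquid culture at 30 °C, with 3 independent cultures per substrate. The maltose cultures held 20 g/l maltose, and the wood cultures held 15 g/l of wood with, by the study's methods, 2.5 g/l maltose, in an otherwise shared mineral medium with yeast extract and thiamin. The pine (*Pinus halepensis*) was ground and sifted to pass 2 mm and included bark, and the aspen (*Populus grandidentata*) was Wiley-milled to 1 mm, neither being extracted. Wood cannot be told apart from less maltose in the comparisons with maltose, and the wood species cannot be told apart from the bark and the grinding in those between woods.

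Poly A RNA was sequenced to 28399534 to 38654866 counted reads per library. In an edgeR quasi-likelihood fit of the 11130 genes with a mean raw count of at least 5, adjusted by Benjamini-Hochberg over all of them, 15.2% of the genes were higher on pine than on aspen and 15.1% were lower at an adjusted p under 0.05, while 29.1% were higher on pine than on maltose and 26.3% higher on aspen than on maltose. All 67 members were among the genes tested. By the same fit 61 of the 67 were higher on pine than on aspen and all 67 were higher on either wood than on maltose, from which nothing is read, because the definition used these contrasts. With the prefix of the library codes in the study's library list, PAU or PAW, as a term in the fit, 36 of the 67 and 682 of all genes were called higher on pine. Every pine library has the prefix PAW, and of the aspen libraries aspen 3 has it. Values are shares of the RNA of a whole culture, in which fewer cells expressing a gene and less RNA per cell cannot be told apart.

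By its definition the set accounted for a larger part of the transcriptome on pine than on the other substrates. Its members took 3.23% to 3.62% of all counted reads in the pine libraries, 1.498% to 1.67% in the aspen libraries and 0.175% to 0.193% in the maltose libraries. Of the 812 genes with aspen at least 4 times maltose, 538 had pine within 2-fold of aspen and 199 had aspen at least 2 times pine. Pine over aspen ranged over the members from 2.02 to 7.22 with a median of 2.67. The median over all 11202 genes was 0.98, a gap that the definition fixes. It was under 2.5 in 29 members, at least 3 in 23 and at least 4 in 7. Aspen over maltose had a median of 7.42 and reached 384, was under 8 in 38 members and at least 20 in 8. The median over the members of the mean normalized count was 152 on maltose, 1352 on aspen and 4614 on pine, each taken separately and so from different genes. The median gene span was 1670 bases, beside 1673 over all genes.

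**Figure D1:**
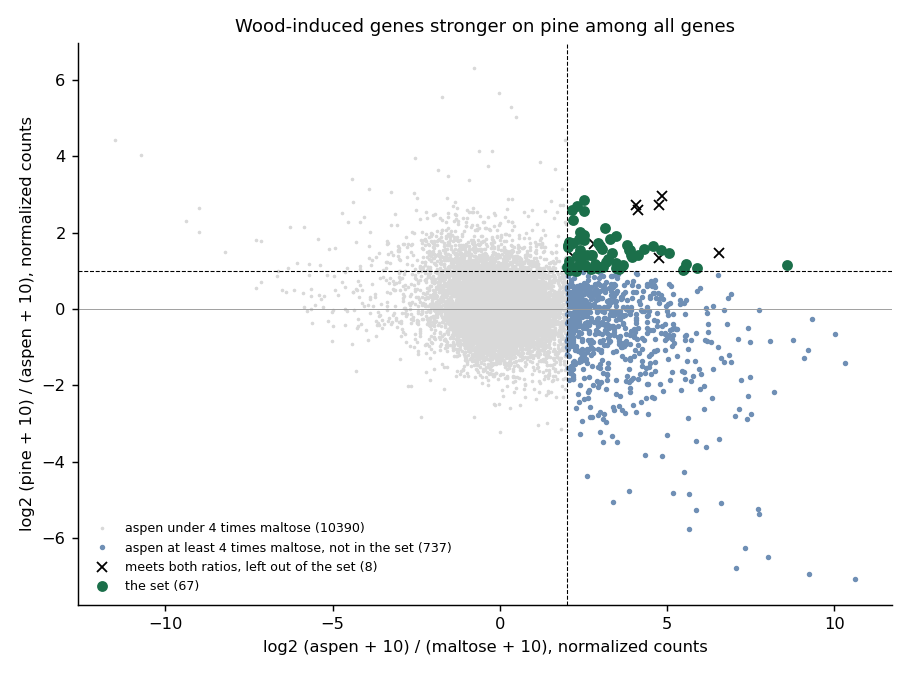
Each point is a gene, placed by the log2 ratio of aspen to maltose (horizontal) and of pine to aspen (vertical), from group means of normalized counts plus 10. The dashed lines are the ratios of 4 and 2 that define the set. The 67 members (green) fill the upper right corner, close to both lines for most genes, and the crosses are the 8 genes left out.

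The libraries of each substrate stayed apart for most members. Every maltose library was below every aspen library in all 67, where 32.5% of all genes showed that order, and every pine library was above every aspen library in 51 of 67, where 20.8% of all genes did. The definition asks for group means in these orders, so nothing is read from the difference to all genes. In 7 members the lowest pine library was at least 2 times the highest aspen library, 10 being added to both. In the 16 members outside those 51 the pine and aspen libraries overlapped, by most in 1437493, where the lowest pine value was 0.46 times the highest aspen value.

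The pine cultures were the least alike. The coefficient of variation among the 3 pine libraries had a median of 38.4% over the members, against 21.3% on aspen and 24.9% on maltose, and it was larger on pine than on aspen in 53 of 67. Over all genes the medians were 24.2%, 15.7% and 16.4%. Pine 2 was the highest pine library for 31 members, pine 3 for 21 and pine 1 for 15, and pine 1 was the lowest for 33. Over all genes the pine library that stood highest was pine 2 in 29.2% of genes and the lowest was pine 1 in 33.9%, against 46.3% and 49.3% of the members.

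The cultures were also compared singly. Against the mean of the 3 aspen libraries, the median member was 2.19 times higher in pine 1, 3.04 times in pine 2 and 2.48 times in pine 3, while the median over all genes was 0.99, 0.95 and 0.95. The mean of the pine libraries was 3.18, 2.63 and 2.38 times aspen 1, aspen 2 and aspen 3 in the median member, and it exceeded each aspen library in all 67. The prefix PAW leaves the 3 pine libraries and aspen 3, so that it gives the comparison with aspen 3 over again. In it all 67 ratios were above 1, 49 were at least 2, and the median was 2.38. Among the libraries whose reads were trimmed to 70 bases (pine 1, pine 3 and aspen 2) the median was 2.48 and all 67 were above 1. Among those trimmed to 78 bases (pine 2, aspen 1 and aspen 3) it was 3.14 and 65 of 67 were above 1. The definition used the means of these same libraries, which largely fixes ratios above 1. Nothing is read from them about the prefix or the trimming.

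**Figure D2:**
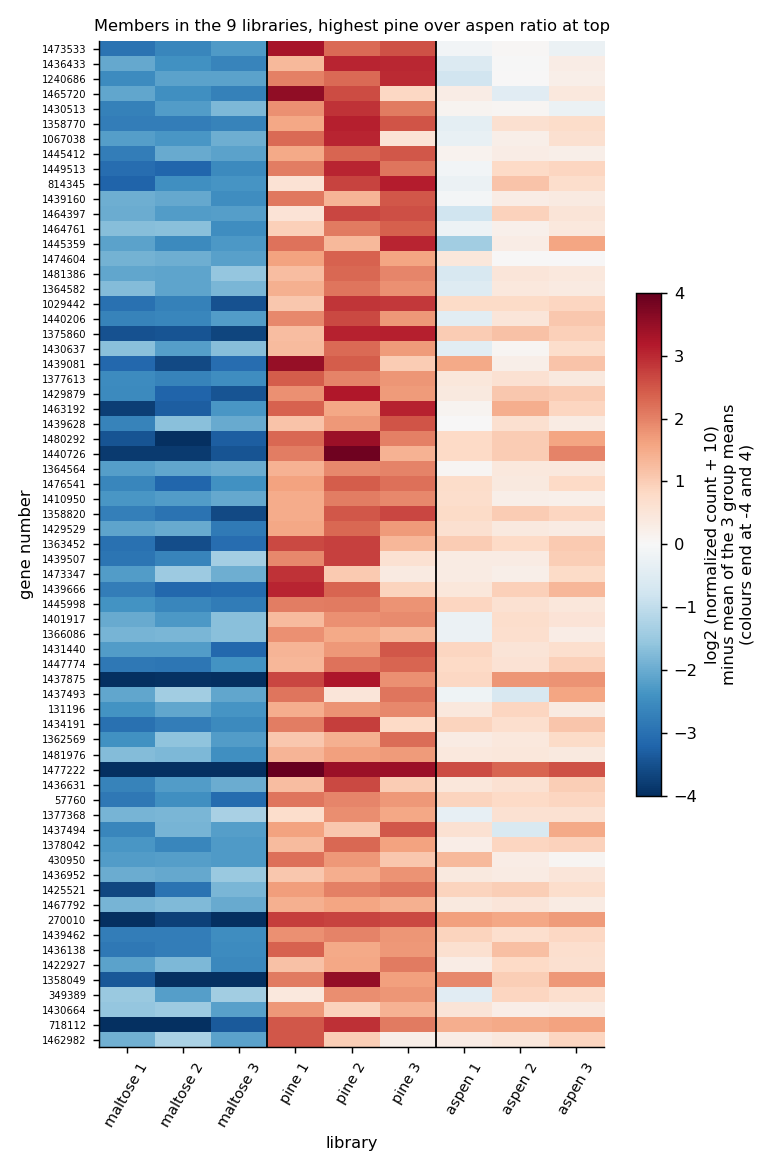
Rows are the 67 members ordered by pine over aspen, columns the 9 libraries, and colour is log2 of the normalized count plus 10 minus the mean of the gene's 3 group means, ending at -4 and 4. All 67 rows are below 0 (blue) in the 3 maltose libraries and above 0 (red) in the 3 pine libraries, and which pine library is darkest changes from row to row.

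The widest gap between the woods was that of gene 1473533, in none of the study's annotation tables. It read 185332, 91196 and 111676 normalized counts on pine, 17739.6, 19716 and 16259 on aspen and 2419, 3116 and 3906 on maltose, so that its lowest pine library was 4.62 times its highest aspen library. The ratio of pine to aspen was 7.22 and that of aspen to maltose 5.67, and the gene ranked 34th of all genes by mean on pine and 321st on aspen. It was the second most abundant member on pine.

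The other genes with a ratio above 5 were 1436433, 1240686, 1465720 and 1430513, of which 1465720 and 1430513 are listed by the study as encoding proteins of unknown function without a signal peptide, the leader that sends a protein out of the cell. Gene 1436433 read 1809, 6056 and 5976 on pine against 495, 713 and 903 on aspen and 169, 128 and 107 on maltose, a ratio between woods of 6.48, with pine 1 the lowest pine library and still above all aspen libraries. Gene 1240686 read 23718, 28268 and 46321 on pine, 3428, 5949.5 and 6902 on aspen and 1019.7, 1320.5 and 1309.7 on maltose, with no overlap and a ratio of 6.03. Among these the pine cultures differed most for 1465720, which read 97099, 50895 and 14655 on pine, 10197, 6073 and 11134 on aspen and 1986, 1509 and 1271 on maltose, so that pine 3 lay just above the highest aspen library and pine 1 far above it. The means of 1465720 were 54216 ± 41322 on pine and 9135 ± 2693 on aspen (SD, n = 3 each). Gene 1430513 was less abundant, with 1234, 2598 and 1486 on pine, 371, 359 and 293 on aspen and 44.5, 65.7 and 91.1 on maltose, again without overlap.

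Below these came 1358770, which has no signal peptide and no known function, with 4.33, the GH78 gene 1067038 with 4.05, the signal-peptide gene 1445412 with 3.84, and 1449513 and 814345, in none of the tables, with 3.77 and 3.59. Gene 814345 was scarce, with 159, 721 and 996 on pine, 85.8, 241 and 174 on aspen and 2.22, 10.4 and 11.9 on maltose, and pine 1 fell inside the range of aspen. For 1358770 and 1449513 the lowest pine library was above the highest aspen library, at 1236, 3707 and 2439 on pine against 315, 663 and 703 on aspen, and at 2648, 5264 and 2809 against 580.1, 1095 and 1147. Of the 10 members with the highest ratios, 814345 and 1067038 were the ones whose pine and aspen libraries overlapped.

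By abundance the set was headed by gene 270010, which encodes a protein of unknown function with a predicted signal peptide. It read 472216, 454050 and 429378 on pine, 216043, 203301 and 226521 on aspen and 3287, 5159 and 2354 on maltose, ranked 5th of all genes on pine by count and 2nd per kilobase of gene, and alone took 0.95% to 1.14% of the counted reads of a pine library. Its pine libraries differed by the least of any member, with a coefficient of variation of 4.76%. The ratio of pine to aspen was only 2.10, near the limit of the definition, while aspen over maltose was 59.6. With the library prefix as a term its fitted log2 difference between pine and aspen was 0.72 in place of 1.04.

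Of the other abundant members, the cupredoxin-like gene 1464761, whose fold is that of small copper-binding proteins, read 63713, 138486 and 170423 on pine, 28697, 37648 and 44174 on aspen and 10065, 10248 and 5916 on maltose. Its pine libraries were all above those of aspen, pine 1 by the least. Gene 1430664, with a signal peptide and no conserved domain, read 135517, 78105 and 107489 on pine, 58016, 49379.8 and 51072 on aspen and 13889, 14924 and 9031 on maltose, without overlap. It met the definition narrowly on both sides, at 2.03 for pine over aspen and 4.18 for aspen over maltose.

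Genes 1422927, 1364564, 1429529 and 1378042 made up the rest of the 10 highest means on pine and are in none of the tables. Their means on pine were 78128 ± 24489.5, 43702 ± 9176, 43213 ± 12687 and 40691 ± 15627 (SD, n = 3 each), with ratios of pine to aspen of 2.07, 2.77, 2.67 and 2.13. None of the 4 overlapped between the woods. In all, 5 members were among the 100 highest genes on pine and 28 among the 1000 highest.

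Enzymes that act on carbohydrates made up 8 of the 67 members, in 7 families of the CAZy classification. Both GH78 genes of the study's table were members, and so were its only GH12 and its only GH32, a GH35, a GH18, a PL14 and a protein with a CBM13 module. GH78 enzymes are α-L-rhamnosidases, GH35 enzymes β-galactosidases and GH12 enzymes endoglucanases or xyloglucanases. GH18 holds chitinases, GH32 holds invertases and other fructosidases, PL14 holds lyases of uronic acid polymers, and CBM13 is a carbohydrate-binding module with the fold of the ricin B chain.

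The GH78 gene 1067038 read 2952, 5093 and 885 normalized counts on pine, 499, 725 and 957 on aspen and 126, 114 and 151 on maltose, and the other, 1434191, read 4125, 6828 and 1745, 1871, 1605 and 2160.5 and 117, 138 and 161. Pine over aspen was 4.05 and 2.25. In both, pine 2 was highest and pine 3 fell into the range of the aspen libraries, so that the woods overlapped through 1 culture. Rhamnose, which these enzymes release, is a branch-point sugar of pectin.

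The same order of the pine cultures, pine 2 highest and pine 3 lowest, held for 5 of the 8 carbohydrate-active members. The GH35 gene 1439507 read 2063, 3569.8 and 817 on pine, 669, 666 and 1072 on aspen and 62.3, 77.2 and 202 on maltose. The GH12 gene 1358049 read 3314, 8872 and 2438 on pine, 2951, 1521 and 2599.7 on aspen and 64.5, 27.1 and 35.6 on maltose, with a ratio of 45.2 for aspen over maltose. The GH32 gene 718112 read 6395, 8736 and 4837 on pine, 3133, 3251 and 3503 on aspen and 40, 51.1 and 101 on maltose and, unlike GH35 and GH12, did not overlap between the woods. Without pine 2 the ratio of pine to aspen fell under 2 for GH12, GH32, GH35 and the GH78 gene 1434191.

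The chitinase-family gene 1364582 was the scarcest of the 8, with 273, 461 and 368 on pine, 64.3, 133 and 125 on aspen and 22.2, 14.6 and 19.8 on maltose, and no overlap. The PL14 gene 1425521 read 907, 1150.4 and 1277 on pine, 529.7, 568 and 466 on aspen and 13.3, 27.1 and 71.3 on maltose, also apart. For the CBM13 gene 1439081, pine 1 was the high library, with 2781, 1314 and 485 on pine against 689.5, 281 and 534 on aspen and 17.8, 10.4 and 19.8 on maltose, and pine 3 lay below aspen 1 and aspen 3. Thus 3 of the 8 carbohydrate-active members kept the woods apart, compared with 48 of the other 59 members. This contrast depends on the enzymes that the definition left out. Of those, the AA9 genes 1466495 and 1464041 and the GH28 gene 688728 kept the woods apart, and the order in the GH43 and AA3_4 genes is not given here. The median coefficient of variation on pine was 62.1% for the 8 members, against 37.5% for the members in none of the tables.

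**Figure D3:**
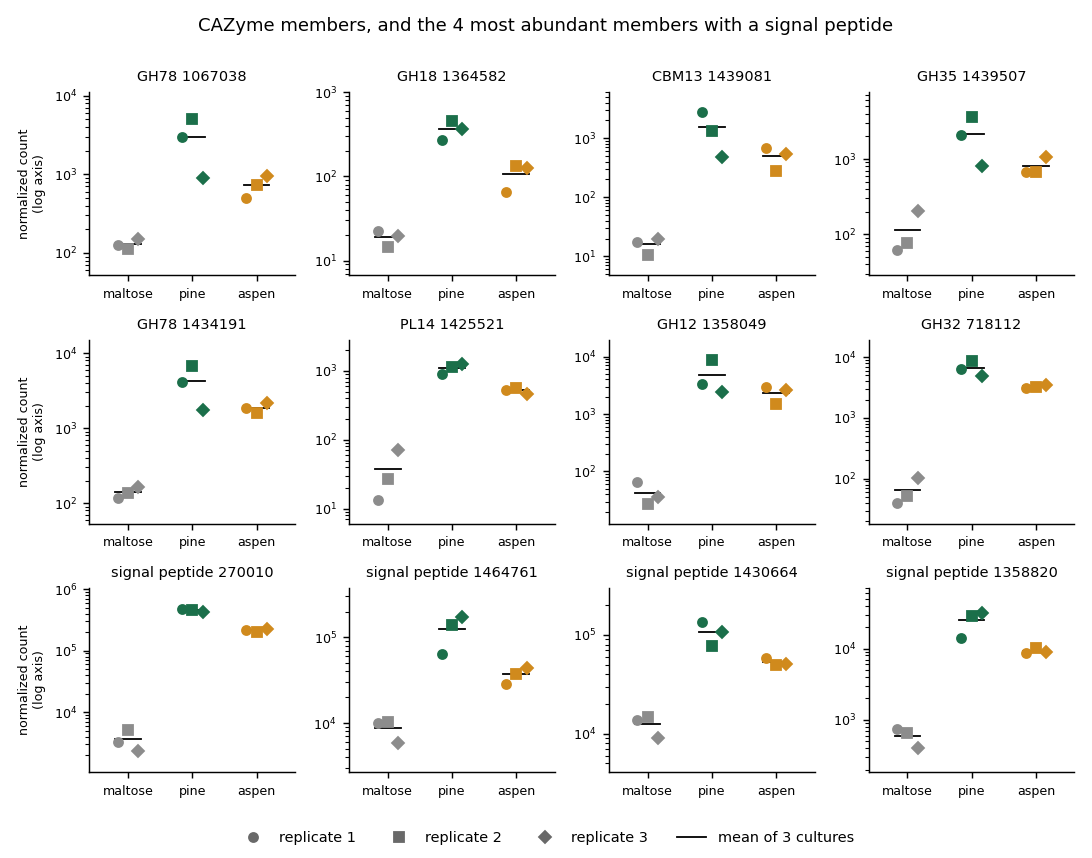
Normalized counts (log axes) of the 8 members of the study's CAZyme table and of the 4 most abundant members with a signal peptide, in each culture on maltose, pine and aspen. Symbols mark the replicate and bars the mean of 3 cultures. Pine 2 (square) is the highest pine culture in 6 of the 8 enzymes, and pine 3 (diamond) falls within or below the range of aspen in GH35, GH12, CBM13 and both GH78 panels.

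The other genes of these families did not share the pattern as a group. The second GH35 gene, 1439531, read 22349.8 ± 7247 (SD, n = 3) on pine and 14748 ± 2362 (SD, n = 3) on aspen, a log2 difference of 0.57 with an edgeR adjusted p of 0.085. Among the 3 PL14 genes outside the set, 1452408 was higher on pine, by a log2 of 1.28 (SE 0.25, edgeR adjusted p = 0.0029), and the others did not pass the test. Neither of the 2 CBM13 genes outside the set passed it. Of the 12 GH18 genes outside the set 3 were higher and 5 lower on pine.

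Proteins of unknown function with a predicted signal peptide were 14 of the 67 members, or 20.9%. They were 8.18% of the 538 wood-induced genes with pine within 2-fold of aspen, 7.54% of the 199 that were stronger on aspen, and 2.66% of all genes in the normalized table. Carbohydrate-active enzymes were 11.9%, 10.4%, 19.1% and 2.39% of the same sets, and unknown proteins without a signal peptide 25.4%, 39.0%, 31.7% and 16.2%. The remaining 28 members are in none of the tables. No member is in the P450 table, as the 3 listed P450s that met both ratios were left out by the definition. That table does not hold all P450 genes of the genome. Whether any of the 28 members in none of the tables encodes a P450 was not tested. The other 5 genes left out are carbohydrate-active enzymes. Over all 75 genes that met both ratios carbohydrate-active enzymes were 13, or 17.3%, listed P450s 4% and unknown proteins with a signal peptide 18.7%. No such genes were left out of the sets compared. The study drew up these tables from the same libraries, so the shares are not independent of the readout.

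Among the 14, pine over aspen ran from 2.03 to 3.84, aspen over maltose from 4.08 to 384, and the woods stayed apart in 11. The exceptions were 1445359, 430950 and 349389. Gene 1445412 read 2385, 4235 and 4691 on pine, 919, 1028 and 977 on aspen and 113, 197 and 180.2 on maltose, and its aspen libraries lay close together. The nuclease-like gene 1430637 read 1413, 2838 and 1929 on pine, 430.0, 611 and 942 on aspen and 176, 118 and 170.3 on maltose. Gene 1358820, next after 1430664 in abundance, read 14160.4, 28500.5 and 32079 on pine, 8661, 10116 and 9080.1 on aspen and 747, 649 and 408 on maltose.

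The steadiest of them after 270010 was 1445998, with 10414, 10678 and 8818 on pine, 4602, 3842 and 3491 on aspen and 471, 408 and 354 on maltose. In 1480292 and 1363452, by contrast, a single pine culture stood out. Gene 1480292, which has no conserved domain either, read 2093, 4598 and 1697 on pine against 729, 847 and 1271 on aspen, pine 2 being the high one, and 1363452 read 6816, 7287 and 2731 against 2168, 1861 and 2253, pine 3 being the low one. Gene 1439628 read 1985, 2985 and 5128 on pine and 896, 1387 and 1128 on aspen, with pine 3 highest.

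In the 3 that overlapped, the aspen libraries were spread as well. Gene 1445359 read 632, 344 and 1167 on pine and 45, 164 and 415 on aspen, where aspen 3 was above pine 2. Gene 430950 read 2548, 1803 and 1144 on pine and 1331, 672 and 573 on aspen, where aspen 1 was above pine 3. The scarcest member by its mean on pine, 349389, read 141, 399 and 373 on pine and 71.8, 192 and 169 on aspen, where pine 1 was below aspen 2 and aspen 3.

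The strongest response to wood in the set was that of 1477222, another signal-peptide gene. It was almost silent on maltose, at 4.45, 2.09 and 11.9 normalized counts, and read 17935, 11611 and 11735 on pine and 6720.3, 5466 and 6364 on aspen. Pine over maltose was 853 and aspen over maltose 384, the largest among the members, and the woods did not overlap. The ratios depend on the added 10 at such low maltose counts. Gene 1477222 lies 1 gene away from 270010.

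Some members lay side by side in the genome. In the gene order of the RefSeq assembly Pycco1, in which all 67 members were found, 10 members had another member as the next gene, where 1.05% of all 12692 protein-coding genes had a member as neighbour. Within 3 genes on either side it was 14 members, against 2.95% of all genes, and within 10 genes still 14, against 9.04%. Position was not used to choose the set. Scaffold ends were inferred from start positions that fall back, so some genes counted as neighbours may lie on different scaffolds. The 10 formed 5 pairs, 1473347 with 1462982, 1463192 with 1473533, 131196 with 1364564, 1437493 with 1437494, and 1375860 with 1029442, and 2 further pairs were 1477222 with 270010 and 1474604 with 1464397.

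In all 5 adjacent pairs the partners shared the lowest pine library, and in 2 pairs the whole order of the pine libraries. Over all 2211 pairs of members the lowest pine library was shared in 39.1% and the order in 19.1%, and over all 10490 pairs of adjacent genes in 40.2% and 22.1%. With 5 pairs, 1 of them of overlapping models, nothing is read from the difference. Genes 131196 and 1364564, 326 bases apart, were such a pair. Gene 131196 read 25013, 31673 and 34630.5 on pine, 12153, 16621 and 11795 on aspen and 1731, 2171 and 1770.0 on maltose. Gene 1364564 read 33166, 48000.1 and 49939 on pine, 13287, 17059 and 16975 on aspen and 2728, 3002 and 3201 on maltose. In both, pine 1 was the lowest pine library and still above all aspen libraries, and neither flanking gene, 1407848 and 1407853, passed the test between the woods (edgeR adjusted p of 0.95 and 0.77).

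Genes 1473347 and 1462982 were the other such pair, with pine 1 several times above pine 2 and pine 3. Gene 1473347, of unknown function, read 29022, 8004 and 5047 on pine, 4925, 4620.5 and 6573 on aspen and 816, 1409 and 999.8 on maltose. Gene 1462982 read 19695, 6950.1 and 4086 on pine, 4257, 4672 and 6304 on aspen and 915, 1449 and 788 on maltose. In both, pine 3 was inside or below the range of aspen, and without pine 1 neither met the definition. The next gene, 1462983, read 12212, 4768 and 3408 on pine and 4802, 5408 and 5503 on aspen, with the same high pine 1, but its log2 difference between the woods was 0.37 (edgeR adjusted p = 0.50) and it is not a member.

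Genes 1375860 and 1029442 were both low in pine 1 and alike in pine 2 and pine 3. Gene 1375860 read 1536, 5592 and 5672 on pine, 1314, 1471 and 1273 on aspen and 48.9, 50.1 and 41.6 on maltose. Gene 1029442, of unknown function, read 779.9, 2754 and 2674 on pine, 636, 629 and 667 on aspen and 37.8, 48 and 23.8 on maltose. These gene models overlap by 224 bases, and whether the counting used strand is not given in the sources used here, so that their reads cannot be fully told apart.

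Genes 1437493 and 1437494, both of unknown function without a signal peptide, overlapped between the woods. Gene 1437493 read 2596, 806 and 2552 on pine, 510.4, 368 and 1749 on aspen and 128, 213 and 129 on maltose. Gene 1437494 read 296, 205 and 555 on pine, 146, 57.1 and 277 on aspen and 6.67, 17.7 and 11.9 on maltose. In both, pine 2 was the lowest pine library and aspen 3 the highest aspen library. The gene beside 1437493, 1437492, was itself higher on pine than on aspen, with 18833, 23446 and 23592 on pine, 12469, 10402 and 11876 on aspen and 8386, 8103 and 7929 on maltose (log2 0.89, SE 0.19, edgeR adjusted p = 0.004), and is no member, as aspen was 1.42 times maltose and pine 1.89 times aspen.

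The fifth pair joined the member with the widest gap, 1473533, to 1463192, 455 bases away. Gene 1463192 read 8065, 4624 and 13172 on pine, 1695, 4250.4 and 2818 on aspen and 105, 151 and 305 on maltose, and pine 3 was its highest library where pine 1 was that of 1473533. The gene on the far side of 1463192, 1463191, was raised on both woods as well, with 119087, 59029 and 71516 on pine, 92244, 71892 and 89514 on aspen and 16786, 20389.5 and 13679 on maltose, but did not differ between them beyond the spread (log2 difference -0.04, edgeR adjusted p = 0.93). The gene beyond 1473533, 1430106, read 13448 ± 1483 (SD, n = 3) on pine, 12234 ± 1014 (SD, n = 3) on aspen and 12188 ± 723 (SD, n = 3) on maltose.

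Around 270010 the genes of unknown function with a signal peptide followed each other. In order these were 271638, the member 1477222, whose model overlaps that of 271638 by 160 bases, 1458725, the member 270010 and, beyond 1366633, which is in none of the tables, 1477226. Gene 271638 read 2334, 2515 and 4974 on pine, 3774, 3441 and 2757 on aspen and 8.9, 2.09 and 5.94 on maltose. Gene 1458725 was far scarcer, at 192 ± 18 (SD, n = 3) on pine and 19.6 ± 4.93 (SD, n = 3) on maltose. Gene 1477226 was close to 270010 in abundance, with 424222, 362974 and 280110 on pine, 235850, 221060 and 224902 on aspen and 7248, 8537 and 4745 on maltose, and its log2 difference between the woods was 0.63 (SE 0.27, edgeR adjusted p = 0.094). Genes 271638 and 1458725 did not pass the test between the woods either (edgeR adjusted p of 0.90 and 0.53). By the Wald test of DESeq2, 1477226 did (adjusted p = 0.023). Sequences were not used here, so the likeness of these genes to each other was not examined.

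Of the 28 genes tested that flank or lie between the members of the 7 pairs, 6 were higher on pine than on aspen and 2 were lower, 1473345 and 1418284. Apart from 1437492 the higher ones were its neighbour 1479261 (edgeR adjusted p = 0.019), 933464, 1431457 and 1360626 around the pair of 1474604 and 1464397 (adjusted p of 0.013, 0.012 and 0.001), and 1434790 near 1477222 (adjusted p = 0.013). Of these 6, 1437492 had every wood library above every maltose library, and the other 5 did not.

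**Figure D4:**
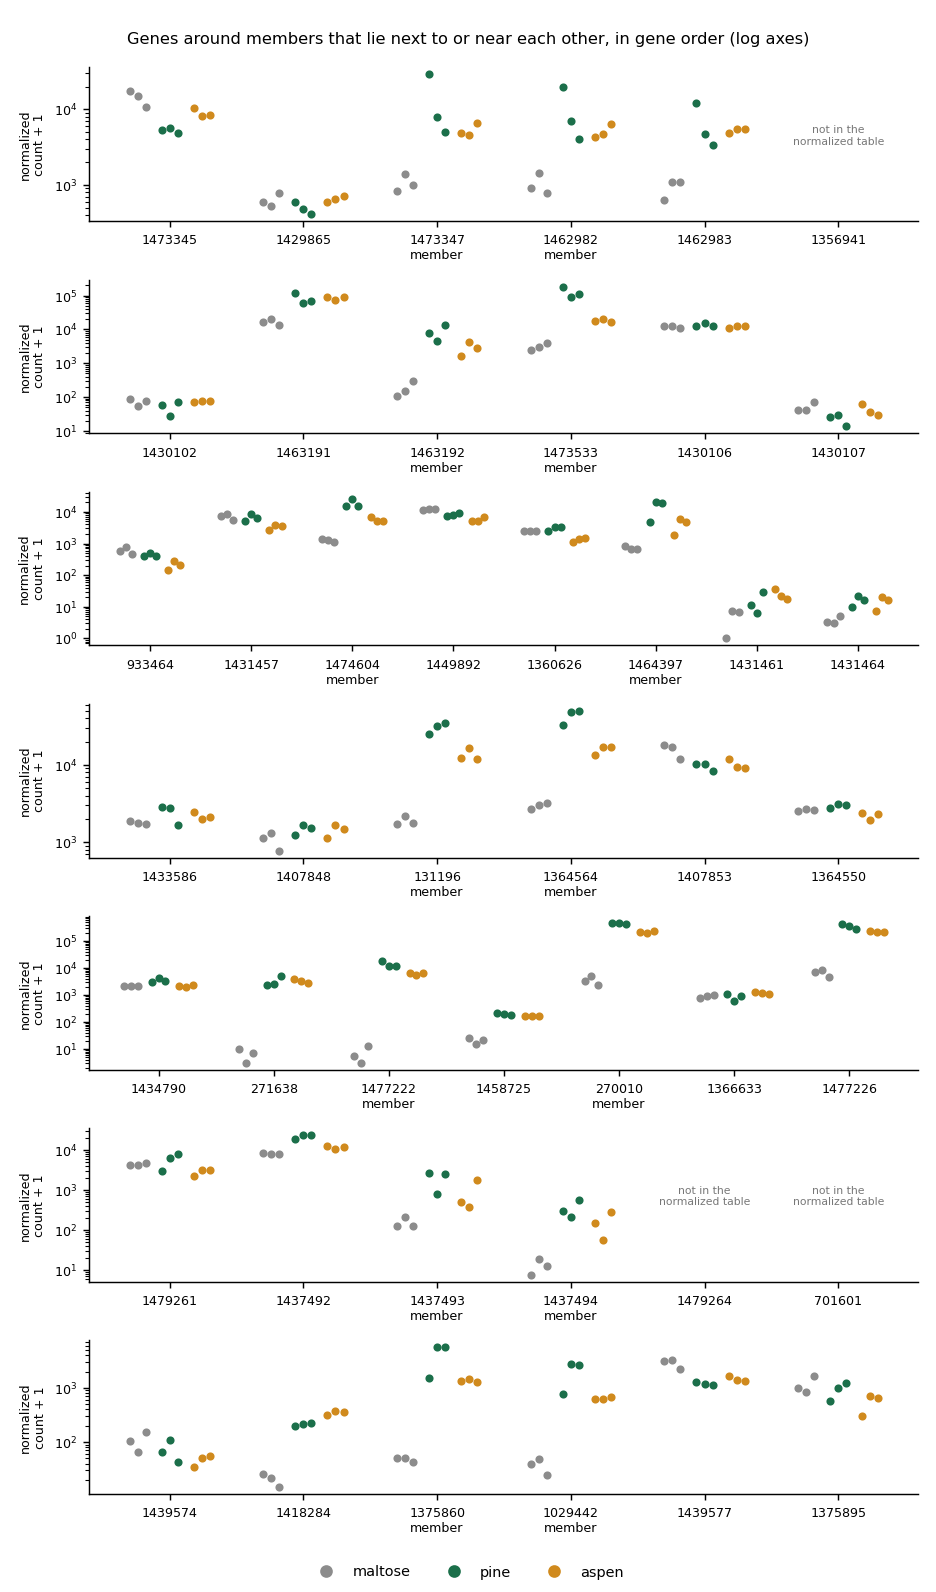
Normalized counts plus 1 (log axes) of the genes around the 7 pairs of members that are next to or within 3 genes of each other, in gene order, 1 panel per pair, with a dot per culture. Among the flanking genes, 8 have every wood library above every maltose library, namely 1462983, 1463191, 1431464, 271638, 1458725, 1477226, 1437492 and 1418284.

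Over all members, the shares of neighbouring genes called between the woods were not far from those of all genes. Of the 112 genes tested that lie next to a member without being one, 20 (17.9%) were higher on pine than on aspen, beside 15.2% of all genes, and 12 (10.7%) were lower, beside 15.1%. The median log2 difference was 0.10 over these genes and -0.06 over all genes outside the set. Without pine 2, aspen 2 or aspen 3 the 12 lower genes became 4, 6 and 6. Of the same 112 genes, 43 (38.4%) were higher on aspen than on maltose, beside 26.3%.

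Other genes of the same pathways were compared between the woods with the members left out, which removes genes that were higher on pine from a list and none that were lower. Of the 61 P450 transcripts, 15 rose and 15 fell on pine relative to aspen, with a median log2 difference of 0.05, and 3 of those that rose are genes that the definition of the set leaves out. Among the 15 AA9 genes, lytic polysaccharide monooxygenases that cut cellulose by oxidation, 4 were higher, 2 of them left out by the definition, and 4 lower. The families AA1 and AA2 hold laccases, ferroxidases and peroxidases of lignin. Of their 8 genes none was higher in edgeR (2 at an unadjusted p under 0.05, 1 in DESeq2). The AA2 gene 1464049 was the 1 that was lower, with 99.9, 97.4 and 178 on pine and 14267, 13654 and 16759 on aspen (log2 -6.94, SE 0.39, edgeR adjusted p = 2.6e-07). Of the 24 genes of AA3 and AA5, oxidases that yield hydrogen peroxide among them, 4 were higher and 7 lower.

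In the xylan, cellulose and CBM1 lists more genes were lower than higher on pine. These lists share genes, so their counts are not separate. Among the lower genes, 1434718 is in the cellulose and CBM1 lists, and 1377160, 1426850 and 1392142 are in the xylan and CBM1 lists. In the xylan list 12 of 24 genes were lower on pine and 1 was higher, and the median log2 difference was -0.88. The higher one was the GH43 gene left out of the set, and in DESeq2 12 genes were lower and 0 higher. The GH10 xylanase 1395316 read 135, 113 and 133 on pine and 13392, 12953 and 10707 on aspen (log2 -6.62, SE 0.29, edgeR adjusted p = 5.3e-08). In the cellulose list 7 of the 22 genes outside the set were lower and 2 higher, with a median of -0.82, and among the 22 proteins with a CBM1 cellulose-binding module 10 were lower, with a median of -1.27, and none was higher in edgeR, at an unadjusted p under 0.05 or in DESeq2 (0 in each). Of 9 mannan genes 2 were lower and none higher in edgeR (1 at an unadjusted p under 0.05, 1 in DESeq2), but their median was above 0, at 0.23.

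In the pectin list, which holds 3 members (both GH78 genes and the GH35 gene 1439507), 1 of the other 13 genes was higher and 1 lower, and the median was 0.16. The higher one was the GH28 polygalacturonase 688728, which the definition leaves out, and the lower one the GH53 galactanase 1363671, with 1867, 3511 and 923 on pine and 9111, 5876 and 8034 on aspen (log2 -1.89, SE 0.42, edgeR adjusted p = 0.0058).

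Genes higher on pine were more frequent in the lists of fungal wall and expansin-related proteins. Of the 54 fungal wall genes outside the set, 19 were higher and 10 lower, with a median of 0.40, and of the 10 expansin-related genes, whose products resemble proteins that loosen plant walls, 7 were higher and 1 lower, with a median of 1.13. The expansin-related gene 1386069, which had the largest difference in its list, read 1360.0, 1382 and 3822 on pine, 463, 398 and 458 on aspen and 14654, 11390.1 and 5011 on maltose, so that the woods differed below the maltose level (log2 2.27, SE 0.43, edgeR adjusted p = 0.0023). Glycosyltransferases gave 8 higher and 3 lower of 32. Proteins of unknown function outside the set gave 64 higher and 41 lower of 283 with a signal peptide, and 258 higher and 330 lower of 1793 without. Over all 11063 genes outside the set, 14.8% were higher and 15.1% lower.

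**Figure D5:**
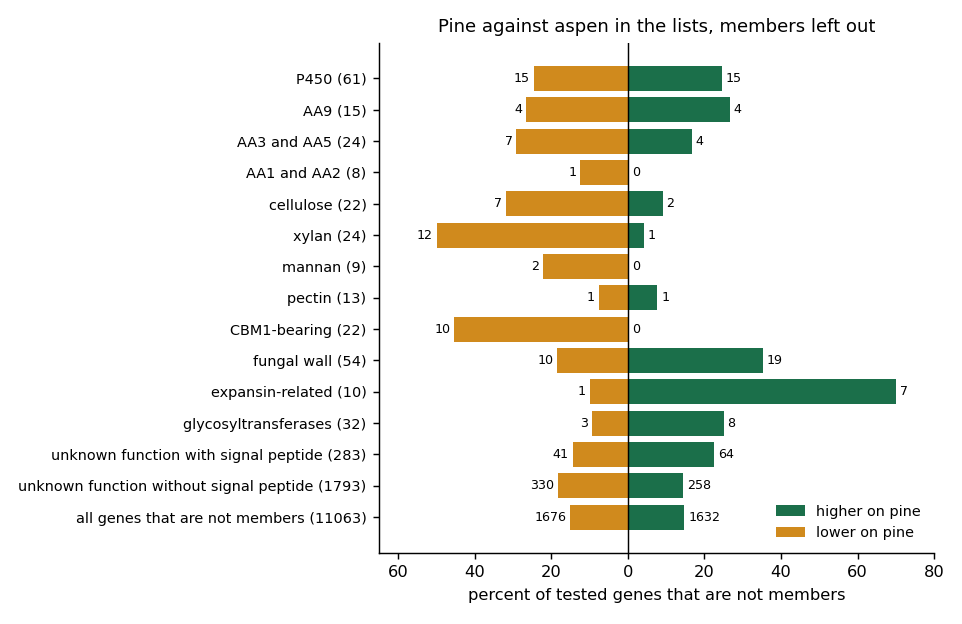
Bars give the percent of tested genes in each list, members left out, that were higher (green, right) or lower (orange, left) on pine than on aspen in edgeR at an adjusted p under 0.05. Numbers at the bars are gene counts, and the number in brackets is the genes tested. Some genes are in several lists. Xylan and CBM1-bearing genes lie mostly to the left and expansin-related genes to the right, while all genes outside the set are near 15% on each side.

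The definition cut through a continuous range. The members just inside the limit of 2 for pine over aspen were 1462982 at 2.02, the GH32 gene 718112 at 2.02 and 1430664 at 2.03, and the genes just outside it were 1470460 at 2.00, 1122554 at 1.97 and the GH16 gene 1445188 at 1.96. With the limit at 3 the set held 23 genes, and with the limit at 1.5 it held 132. Leaving out 1 library at a time gave 56 to 74 genes, among them 54 to 65 of the 67 members, and 32 members met the definition whichever library was left out. Group medians in place of means gave 61 genes, 49 of them members, and TMM-scaled raw counts gave 62, all of them members.

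Gene models of 18 members overlap a neighbouring model, by 24 to 368 bases. The longest overlap is that of 1480292 with 1438863, which is no member and had 282443 raw counts over the 9 libraries, and reads in the overlap cannot be assigned to either gene here. No member had a raw count of 0 in any library. The lowest raw count was 131 on pine, 42 on aspen and 2 on maltose, and 5 members had a maltose library under 10 raw counts, where the ratios to maltose are least precise.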

How the data were processed

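The 9 libraries are 3 cultures each of *P. coccineus* on maltose, pine and aspen. Per the labels and methods, the authors trimmed the reads, aligned them with TopHat2 with unique mapping only and used HTSeq to count reads by gene. The deposited raw counts are whole numbers for 12690 genes and sum to 28399534 to 38654866 per library. The deposited normalized counts, treated as a signal, are the raw counts that the authors multiplied by 1 constant per library, from 0.99 to 1.59, with DESeq (version 1.5 in the submitters' processing notes), and cover 11202 genes. They are not divided by gene length.

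The members and lists were chosen with earlier results of these data known. Members were found from the normalized counts, and values per library and ratios of group means plus 10 are given without a test. Raw counts of the 11130 genes with a mean of at least 5 were fitted with edgeR version 4.0.16 (TMM, glmQLFit, glmQLFTest) in R version 4.3.3, with the 3 substrates as groups over all 9 libraries and Benjamini-Hochberg adjustment over all genes tested. SEs were taken as the log2 difference divided by the square root of the F statistic. On simulated counts the fit recovered 48 of 100 changes of 2-fold between pine and aspen and 99 of 100 of 4-fold. It called 11 unchanged genes. A gene that did not pass the test can thus still differ by 2-fold. Gene families, P450s and signal peptides are those of the study's tables, whose values were not used. Gene order came from the RefSeq annotation of assembly Pycco1, in which 12680 of the gene numbers matched. The edgeR p-values rest on the spread between the 3 cultures within each group, pooled per gene over all 3 substrates and moderated across genes. They are thus not set against the spread of the wood cultures alone. With only the 6 wood libraries, 1423 genes were higher on pine than on aspen and 1352 lower, against 1693 and 1676.

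Named members were every CAZyme, every protein of unknown function with a signal peptide, the 10 highest ratios of pine to aspen, the 10 highest means on pine, the 3 nearest the limit of 2 and those next to each other, beside genes of each list with the largest called change and genes flanking runs of members. Gene 1438863 and the GH35 and PL14 genes outside the set were named with their values known. The alternatives were DESeq2 version 1.42.0, its size factors, other filters, offsets and thresholds, covariates and libraries left out, and those on the separation of the woods were added after seeing the data.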

Additional observations from a re-analysis of the deposited data

How the results depend on the processing

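All 67 members were higher on pine than on aspen in the fitted values under each of the 17 alternatives, a direction that their choice fixes, and their median log2 difference ran from 1.28 to 1.504, against 1.39. Whether the replicate numbers pair the cultures cannot be told from these data. In their deviations from the group means, same-numbered pine and aspen libraries correlated at 0.31, 0.02 and 0.01. Same-numbered pairs with maltose ran from -0.05 to 0.16, and pairs of different numbers from -0.21 to 0.22. With a replicate block, 1896 genes were higher and 1896 lower on pine than on aspen, against 1693 and 1676, and 62 members in place of 61. With the library code prefix as a term, 682 genes were higher and 771 lower, among them 9 P450s higher, 19 genes of the cell wall and lignin lists higher (38 in the main analysis) and 27 lower (48), and 10 neighbours of members higher and 5 lower. The cause was not tested. All pine libraries carry the same prefix. The cell wall and lignin lists are all those above except P450s, glycosyltransferases and proteins of unknown function. They include the fungal wall and expansin-related lists, which had 19 and 7 genes higher and 10 and 1 lower in the main analysis. Leaving out 1 library gave 1056 to 1985 genes higher and 1102 to 2196 lower, the lowest counts being those without aspen 1 (1056 higher) and without pine 2 (1102 lower), 14 to 17 P450s higher and 11 to 17 lower, 27 to 41 cell wall and lignin genes higher and 38 to 53 lower, and 15 to 24 neighbours higher and 4 to 18 lower. It gave 56 to 74 genes meeting the definition and a median pine over aspen ratio of 2.45 to 2.89. With pine over aspen of at least 3 the set held 23 genes, and with at least 1.5 it held 132. Of the members, 49 to 61 kept the woods apart under TMM scaling or with 1 wood library left out, in place of 51. For the 73 named genes outside the set, 1188 of the recomputed values kept their side of the threshold, 40 lost a call and 7 gained one.

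The 3 cultures per group limit what can be told of the 29 members with pine under 2.5 times aspen, and ratios to maltose rest on few reads where maltose counts are low. Sequences of the genes were not used here.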
